A study of Mus musculus with 24 samples.

Results

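Among the 56748 genes listed, 10 protein-coding genes that carry or execute transforming growth factor beta (TGF-β) signalling in endothelial cells were followed by name: the ligands Tgfb1, Tgfb2 and Tgfb3, the receptors Tgfbr1 and Tgfbr2, and the transcription factors Snai1, Snai2, Twist1, Zeb1 and Zeb2. The genes were picked by name with earlier results of these data known, and each name matched 1 row. Cells were taken from livers of 3-month-old C57BL/6 mice, which the methods describe as female, purified on beads for Cd31 (general endothelial cells) or Cd146 (liver sinusoidal endothelial cells), cultured, and transduced with lentivirus. RNA was taken 1 week later. Silencing used a small hairpin RNA against P16Ink4a (P16 shRNA) with a non-coding hairpin in the same backbone as its control (nc shRNA). Overexpression used P16Ink4a fused to GFP (P16) with the vector lacking the insert as its control (empty vector). The 8 groups, 2 populations by 4 constructs, have 3 libraries apiece, all the cells carry a lentiviral construct, and no untransduced cells were analysed here. Whether libraries of a group stem from separate animals is not given in the sources used here, so p-values measure the spread between these libraries.

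TGF-β ligands are secreted in a latent form and, once released, bring together a type II receptor (Tgfbr2), which binds ligand, and a type I receptor (Tgfbr1), which phosphorylates Smad2 and Smad3. With Smad4 these enter the nucleus and act on target genes such as Ccn2, while Smad6 and Smad7 dampen the signal. In endothelial-to-mesenchymal transition (EndMT), a process linked to fibrosis, the Snail, Twist and Zeb factors lower endothelial junction genes and raise mesenchymal ones.

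The libraries held 15409767 to 26470392 reads counted on genes. Cdkn2a, the gene of P16Ink4a, lay at 5.12 to 25.7 CPM (counts scaled to a common library size after normalization by the TMM method of edgeR) in the 6 P16 shRNA libraries against 36.2 to 196 in the 6 nc shRNA libraries, and at 137 to 834 in the 6 P16 libraries against 32.5 to 104 in the 6 empty vector libraries. The labelled cell type was only partly borne out by its markers. Summed endothelial markers lay between 258 and 2043 CPM in 21 libraries but at 35.5 to 71.8 CPM in the 3 Cd146+ libraries numbered 3. Of the sinusoidal markers, Stab2, Lyve1 and Clec4g had medians of 0.392, 1.24 and 0 CPM, and Stab1 one of 27.2 CPM (3.63 to 430). The mesenchymal collagen gene Col1a1 had a median of 10943 CPM, with 460 CPM in Cd146+ empty vector replicate 4, which stood apart from the other libraries. The stellate cell gene Lrat, the Kupffer cell gene Clec4f and the hepatocyte gene Alb had medians of 0 CPM. Other markers of these kinds were present, such as the mesenchymal Pdgfrb (median 313 CPM) and the macrophage gene Lyz2 (49.1 CPM). The summed mesenchymal, macrophage and hepatocyte markers had medians of 25582, 68.7 and 2.11 CPM. The X-inactivation transcript Xist was above the Y-linked Ddx3y in 8 libraries (327 to 760 against 0 CPM). Ddx3y was above Xist in 16 (52.1 to 170 against 0 to 0.225 CPM), at odds with female mice. Of Cd31+ libraries, the 8 held empty vector and P16 replicate 5. Of Cd146+ libraries they held nc shRNA replicate 5, P16 shRNA replicates 5 and 6, empty vector replicates 4 and 5, and P16 replicate 5. The classes were thus spread unevenly over the Cd146+ groups and between the populations. In such bulk samples, fewer cells of a type and less RNA per cell cannot be told apart.

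Every one of the 10 genes was detected well above the counting floor, with 127 counts (Snai2 in Cd146+ P16 replicate 3) as the lowest value in any library, and each passed the low-count filter of every comparison. Levels per transcript length, as FPKM (deposited by the authors), placed the ligands Tgfb3 and Tgfb2 highest, with medians over the 24 libraries of 41.9 and 37.4. Tgfbr2, the ligand-binding receptor, followed at 29.3 FPKM, then Twist1 at 27.9 and Snai1 at 26.5. Tgfbr1, the signalling partner, reached 13.3 FPKM, Tgfb1 12.9 and Snai2 11.7. Zeb1 and Zeb2 were lowest, at 7.20 and 5.17 FPKM. Neighbours in this order do not stand apart: Tgfb3 ranked from 1 to 5 among the 10 genes in single libraries, Snai2 from 2 to 10, and Zeb1 from 8 to 10. Snai2 spread most, from 7.23 to 79.8 CPM over the 24 libraries, and Tgfb1 least, with a highest value 2.06 times its lowest. When the 8 groups were ordered by their mean, each neighbouring pair overlapped for 8 of the 10 genes. For Tgfbr2 and Zeb1 6 of the 7 neighbouring pairs did, and the share over all genes was not taken.

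**Figure D1:**
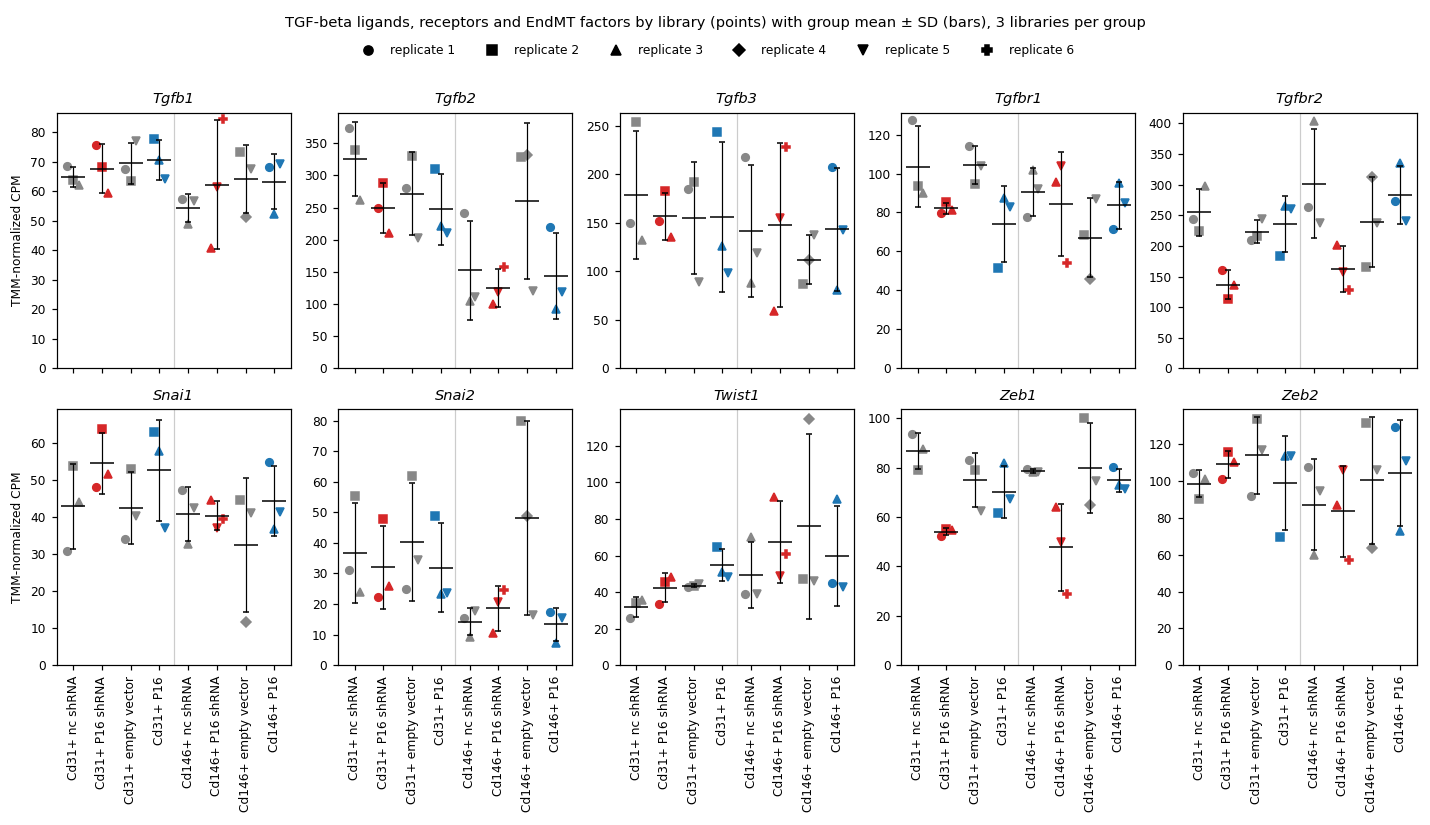
TMM-normalized CPM (vertical axes, each from 0) of the 10 genes in the 8 groups, 1 point per library with its replicate number as the symbol, and the group mean ± SD. The P16 shRNA libraries (red) lie below the nc shRNA libraries for Tgfbr2 and Zeb1 in both populations, and Twist1 reached 134 CPM in Cd146+ empty vector replicate 4.

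The coordinates in the deposited table carry no build name, and the submitters' processing notes name mm9, which leaves their build unsettled. As the table gives them, Tgfb1 (ENSMUSG00000002603) spans 25386427 to 25404502 on chromosome 7 (plus strand), Tgfb2 (ENSMUSG00000039239) 186354989 to 186438186 on chromosome 1 (minus) and Tgfb3 (ENSMUSG00000021253) 86103519 to 86125815 on chromosome 12 (minus). Tgfbr1 (ENSMUSG00000007613) spans 47353222 to 47414931 on chromosome 4 (plus) and Tgfbr2 (ENSMUSG00000032440) 115913361 to 116004428 on chromosome 9 (minus). Snai1 (ENSMUSG00000042821) spans 167380115 to 167384734 on chromosome 2 (plus), Snai2 (ENSMUSG00000022676) 14523716 to 14527249 on chromosome 16 (plus) and Twist1 (ENSMUSG00000035799) 34007670 to 34009828 on chromosome 12 (plus). Zeb1 (ENSMUSG00000024238) spans 5591860 to 5775467 on chromosome 18 (plus) and Zeb2 (ENSMUSG00000026872) 44873644 to 45007407 on chromosome 2 (minus). The libraries do not keep strand, and Ttll5 overlaps Tgfb3 on the other strand with a median of 12.9 CPM, so reads of these 2 genes may not be fully separated. The opposite-strand genes over Tgfb2, Zeb1 and Zeb2 had medians of at most 1.14 CPM.

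The first comparison asks what silencing of P16Ink4a does to these transcripts. In Cd31+ cells Tgfbr2 fell to 53.6% of its control mean and Zeb1 to 62.2%. In Cd146+ cells Tgfbr2 fell to 53.8% and Zeb1 to 60.7%. The ligands, Tgfbr1, Snai1, Snai2, Twist1 and Zeb2 did not pass an unadjusted p of 0.05 in either population. Of the 10 genes 2 were thus called in Cd31+ cells, where 19.8% of all 14358 genes tested were called, and the same 2 in Cd146+ cells, where 11.6% of 15124 genes were called (edgeR's quasi-likelihood test, two-sided). At an adjusted p under 0.05 (Benjamini-Hochberg over all genes tested), 1 of the 10 was called in Cd31+ cells against 1.3% of all genes. In Cd146+ cells none was called, against 0% of all genes, with 1757 genes at an unadjusted p under 0.05 and 333 called by DESeq2, none of them among the 10. Since same-numbered libraries of a population go together, a second fit over its 12 libraries also took out differences between the numbers (replicate block). With it 5 of the 10 were called in Cd31+ cells at an unadjusted p under 0.05 (31.1% of all genes) and 4 after adjustment (16.8%), and in Cd146+ cells 4 (27.4%) and 2 (8.33%). With the block over the 2 silencing groups of Cd146+ cells alone, 0 of 15124 genes were called after adjustment and 2499 at an unadjusted p under 0.05, so the 2 adjusted calls of the block there came from the fit over 12 libraries.

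Tgfbr2, without which a cell cannot bind TGF-β into a signalling complex, showed the largest change of the 10 in both populations. In Cd31+ cells it lay at 244, 224 and 298 CPM with nc shRNA (replicates 1, 2 and 3) and at 161, 114 and 135 CPM with P16 shRNA (replicates 1, 2 and 3). In Cd146+ cells it lay at 263, 403 and 238 CPM with nc shRNA (replicates 1, 3 and 5) and at 201, 157 and 128 CPM with P16 shRNA (replicates 3, 5 and 6). All silenced libraries were below all controls in each population. Its log2 fold change was -0.89 ± 0.17 (SE) in Cd31+ cells, with an unadjusted p of 0.00100 and an adjusted p of 0.0604. In Cd146+ cells it was -0.89 ± 0.27, with 0.0142 and 0.384. With the replicate block the adjusted p was 0.000638 in Cd31+ cells and 0.00727 in Cd146+ cells (log2 fold change -0.78), where the block over the 2 groups alone gave -0.80 with an unadjusted p of 0.00244 and an adjusted p of 0.163. Within the 5 pairs of libraries that share a number, 3 in Cd31+ and 2 in Cd146+ cells, Tgfbr2 was lower with P16 shRNA in 5 of 5, by -0.60 to -1.14 on the log2 scale. Both Cd146+ libraries numbered 3, which were poor in endothelial markers, had the highest Tgfbr2 of their groups, and without them the log2 fold change was -0.81.

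Tgfbr1, which passes the signal on, moved less. In Cd31+ cells it lay at 127, 93.6 and 90.0 CPM with nc shRNA and at 79.9, 85.4 and 81.1 CPM with P16 shRNA (replicates 1, 2 and 3 each). The silenced libraries were below all controls, by a narrow margin, and the log2 fold change of -0.33 ± 0.15 had an unadjusted p of 0.0615. In Cd146+ cells the groups overlapped (77.6, 102 and 92.3 CPM against 95.8, 104 and 54.1), with a log2 fold change of -0.098 ± 0.27. Silenced and control libraries did not overlap for 3 of the 10 genes in Cd31+ cells (Tgfbr1, Tgfbr2 and Zeb1), where this held for 27.4% of all genes, and for 2 in Cd146+ cells (Tgfbr2 and Zeb1), where it held for 20.7%.

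Zeb1, a repressor of junction genes, also fell in both populations. In Cd31+ cells it lay at 93.5, 79.0 and 87.7 CPM with nc shRNA and at 52.3, 55.0 and 54.6 CPM with P16 shRNA (replicates 1, 2 and 3 each). The 3 silenced libraries were close to each other and all below the controls, with a log2 fold change of -0.68 ± 0.10 and an adjusted p of 0.0338. Without any single one of the 6 libraries the adjusted p rose to between 0.0632 and 0.156, with a log2 fold change between -0.64 and -0.75. In Cd146+ cells Zeb1 lay at 79.4, 78.1 and 78.3 CPM with nc shRNA (replicates 1, 3 and 5) and at 64.0, 50.1 and 29.0 CPM with P16 shRNA (replicates 3, 5 and 6). The controls were close to each other and the silenced libraries spread widely below them. There it had a log2 fold change of -0.72 ± 0.29, with an unadjusted p of 0.0410 and an adjusted p of 0.424. The call was lost without nc shRNA replicate 1, 3 or 5 or P16 shRNA replicate 5 (unadjusted p of 0.0805, 0.0797, 0.0805 and 0.0818, with log2 fold changes of -0.72 to -0.76). With the replicate block it was -0.45 with an adjusted p of 0.0403, and -0.47 with an adjusted p of 0.241 with the block over the 2 groups alone. The lowest library, number 6, has no control of its own number. Zeb1 was lower in 5 of 5 same-numbered pairs, by -0.29 to -0.84 on the log2 scale.

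Zeb2, the related factor, did not follow Zeb1. In Cd31+ cells it lay at 90.5 to 104 CPM with nc shRNA and at 101 to 116 CPM with P16 shRNA, a log2 fold change of 0.15 ± 0.10. In Cd146+ cells the ranges were 60.0 to 107 and 57.3 to 106 CPM. The log2 fold change there turned from -0.062 to 0.35 (adjusted p = 0.0693) with the replicate block. Zeb2 was higher with P16 shRNA in both same-numbered Cd146+ pairs and at its lowest in number 6.

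Twist1, a helix-loop-helix factor of mesenchymal cells, was the one gene of the 10 that was higher with P16 shRNA in every same-numbered pair, and by nearly the same amount. In Cd31+ cells it lay at 25.9, 34.2 and 35.9 CPM with nc shRNA and at 33.3, 45.3 and 48.5 CPM with P16 shRNA (replicates 1, 2 and 3 each). In Cd146+ cells it lay at 38.8, 70.2 and 38.7 CPM with nc shRNA (replicates 1, 3 and 5) and at 92.2, 49.1 and 60.9 CPM with P16 shRNA (replicates 3, 5 and 6). The groups overlapped in both populations, while the 5 pair differences ran from 0.34 to 0.43 on the log2 scale. Without the block its log2 fold change was 0.41 ± 0.19 in Cd31+ cells and 0.45 ± 0.33 in Cd146+ cells, with unadjusted p of 0.0627 and 0.219. With the block it was 0.40 and 0.35, with adjusted p of 0.0481 and 0.0529.

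Snai1 and Snai2, the zinc finger factors that bind E-boxes of junction genes, differed between pairs. In Cd31+ cells Snai1 lay at 30.9 to 53.8 CPM with nc shRNA and at 48.2 to 63.9 CPM with P16 shRNA, a log2 fold change of 0.35 ± 0.22, with an unadjusted p of 0.149 without the block and 0.0103 with it (adjusted p = 0.0573). In Cd146+ cells its log2 fold change was -0.013 ± 0.19. Snai2 had log2 fold changes of -0.20 ± 0.41 in Cd31+ and 0.39 ± 0.39 in Cd146+ cells, and was higher in 3 of 5 same-numbered pairs.

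Of the ligands, Tgfb2 had the lowest p in Cd31+ cells, and its call there depended on the fit. It lay at 374, 340 and 262 CPM with nc shRNA and at 249.6, 288 and 210.1 CPM with P16 shRNA (replicates 1, 2 and 3 each), lower in each pair although the groups overlapped. Its log2 fold change was -0.38 ± 0.17, with an unadjusted p of 0.0646 without the block and an adjusted p of 0.0222 with it. DESeq2's Wald test (unadjusted p = 0.0439), the fit without a low-count filter (0.00984) and the fits without nc shRNA replicate 3 or P16 shRNA replicate 2 (0.0171 and 0.0393) also passed an unadjusted p of 0.05, with log2 fold changes of -0.37 to -0.51 and none of them after adjustment. In Cd146+ cells it was -0.28 ± 0.37, and -0.014 with the block. Tgfb1, at 59.3 to 75.7 CPM over the 6 Cd31+ silencing libraries and 40.9 to 84.5 CPM over the 6 Cd146+ ones, had log2 fold changes of 0.068 ± 0.12 and 0.20 ± 0.28. Tgfb3 had log2 fold changes of -0.18 ± 0.26 and 0.066 ± 0.55, with Cd146+ P16 shRNA libraries from 59.3 CPM (replicate 3) to 228 CPM (replicate 6).

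**Figure D2:**
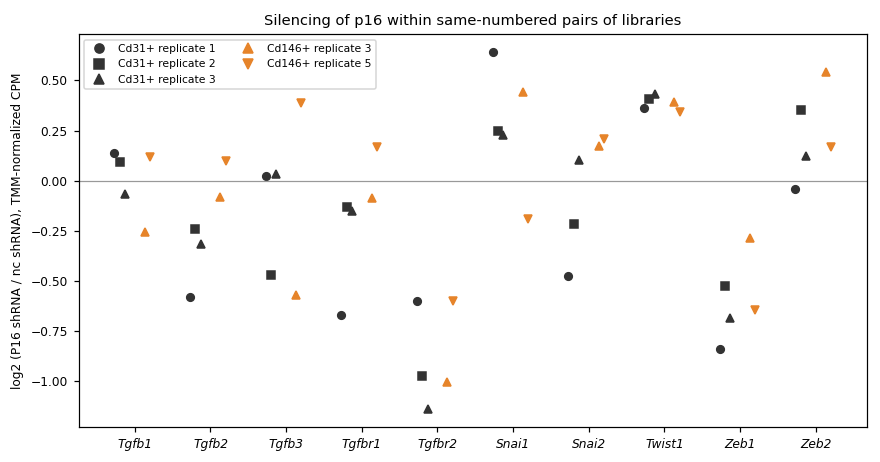
Log2 ratio of P16 shRNA to nc shRNA (TMM-normalized CPM, vertical axis) for the 10 genes within the 5 pairs of libraries that share a replicate number, 3 in Cd31+ cells (dark) and 2 in Cd146+ cells (orange). Tgfbr2 and Zeb1 lie below 0 in 5 of 5 pairs, Twist1 lies between 0.34 and 0.43 in all of them, and the other 7 genes have points on both sides of 0.

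Markers of endothelial and other cells were set beside these changes. In Cd31+ cells 9 of the 10 endothelial markers tested had a lower value with P16 shRNA, with a median log2 fold change of -0.32. Of them 1 was called, Mcam (log2 fold change -1.23), against 19.8% of all genes, and their sum lay at 258 to 555 CPM with P16 shRNA against 414 to 889 with nc shRNA. In Cd146+ cells 7 of the 10 had a higher value and none was called, against 11.6% of all genes. Of the 11 mesenchymal markers tested 8 had a higher value in Cd31+ cells (median log2 fold change 0.15) and 9 in Cd146+ cells (median 0.61), and 1 was called in each population, Col3a1. Their sum lay at 24144 to 51136 against 20230 to 37832 CPM in Cd31+ cells and at 25576 to 31922 against 11131 to 27511 CPM in Cd146+ cells. The 6 macrophage markers tested had medians of 0.18 and 0.66. None of the macrophage, hepatocyte or cholangiocyte markers was called in either population, while single values were wide, such as -2.04 ± 1.32 for Krt19 and 2.32 ± 1.24 for Krt7, both cholangiocyte keratins, in Cd31+ cells. Lrat was at or under 3 counts in all 24 libraries. The part of these markers in the changes of Tgfbr2, Zeb1 and Twist1 was not tested.

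Tgfbr2 and Twist1 moved in opposite directions in every silencing pair, and the 250 bases before their RefSeq start sites are shown for comparison (GRCm38.p6, 5′ to 3′ on the strand of the gene, Tgfbr2 at chr9:116175364-116175613 on the minus strand and Twist1 at chr12:33957421-33957670 on the plus strand). Capitals mark CAGAC, the Smad-binding letters, CACCTG, the E-box bound by Snail and Zeb factors, and GGGCGG, an Sp1-type box, each searched on both strands.
Tgfbr2: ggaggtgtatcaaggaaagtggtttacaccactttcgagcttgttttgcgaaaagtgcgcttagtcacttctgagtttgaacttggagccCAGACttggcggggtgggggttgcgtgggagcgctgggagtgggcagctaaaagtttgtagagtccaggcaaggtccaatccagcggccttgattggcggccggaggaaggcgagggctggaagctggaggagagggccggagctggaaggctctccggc
Twist1: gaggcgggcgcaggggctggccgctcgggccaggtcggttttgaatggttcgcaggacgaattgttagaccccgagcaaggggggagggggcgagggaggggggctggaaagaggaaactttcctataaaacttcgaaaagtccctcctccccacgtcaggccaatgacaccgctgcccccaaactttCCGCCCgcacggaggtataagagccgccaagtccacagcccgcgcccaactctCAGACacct
Both windows held CAGAC once, which 42.2% of the 32851 promoters in the table hold, neither held CACCTG (17.2%), and Twist1 held GGGCGG once (32.7%). These matches are letters only and mark no binding. A window was at hand for 7 of the 10 genes. CACCTG occurred once in that of Snai1, and GGGCGG 5 times in that of Tgfb1.

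The second comparison asks what overexpression of P16Ink4a does. In each population 5 of the 10 genes had a higher value with P16 and 5 a lower one. At an unadjusted p under 0.05 Twist1 was the one gene called in Cd31+ cells, higher by a log2 fold change of 0.34. In Cd146+ cells Snai2 was the one called, lower by a log2 fold change of -1.83. Its values were high in the 2 empty vector libraries that have no P16 library of their number. Tgfbr2 and Zeb1, which fell with silencing, did not pass the test in either population. Of the 10 genes 1 was called in Cd31+ cells (3.73% of 14565 genes at an unadjusted p under 0.05) and 1 in Cd146+ cells (3.53% of 14860). None of the 10 was called after adjustment in either population, against 0% of all genes in both, with 544 genes in Cd31+ and 525 in Cd146+ cells at an unadjusted p under 0.05. DESeq2 called 4 and 1 genes, none of them among the 10. With the replicate block 2 of the 10 were called at an unadjusted p under 0.05 in Cd31+ cells (11.4% of all genes). In Cd146+ cells the empty vector enters the block through replicate 5 alone. This limits each block value of Cd146+ overexpression and of its difference from Cd31+ cells.

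Twist1 lay at 42.7, 43.1 and 44.3 CPM with empty vector (replicates 1, 2 and 5) and at 64.9, 51.1 and 48.5 CPM with P16 (replicates 2, 3 and 5) in Cd31+ cells. The controls were close together and all P16 libraries lay above them. This gave a log2 fold change of 0.34 ± 0.13 with an unadjusted p of 0.0390 and an adjusted p of 0.947. With the block it was 0.22 with an unadjusted p of 0.122, and with sex-linked transcripts as a covariate it was 0.34 with 0.0501. Without P16 replicate 2 it was 0.21 with 0.0761. Without any 1 of the empty vector libraries the call was lost while the log2 fold change stayed at 0.32 to 0.37 (unadjusted p of 0.0675 to 0.105). Twist1 in Cd146+ cells lay at 47.2, 134 and 46.0 CPM with empty vector (replicates 2, 4 and 5) and at 44.8, 91.0 and 42.9 CPM with P16 (replicates 1, 3 and 5), a log2 fold change of -0.36 ± 0.52, which turned to 0.35 without empty vector replicate 4.

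Tgfbr1 in Cd31+ cells lay at 114, 94.7 and 104 CPM with empty vector (replicates 1, 2 and 5) and at 51.5, 87.7 and 82.7 CPM with P16 (replicates 2, 3 and 5). All P16 libraries were below all controls. Tgfbr1 and Twist1 were the 2 of the 10 genes whose groups did not overlap, which held for 10.8% of all genes. For Tgfbr1 the log2 fold change was -0.48 ± 0.22 with an unadjusted p of 0.0637, and -0.46 with 0.0220 (adjusted p = 0.398) with the block. In Cd146+ cells it was 0.31 ± 0.25, and 0.021 with the block. None of the 10 genes was separated in Cd146+ cells, where 8.69% of all genes were.

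Snai2 in Cd146+ cells lay at 79.8, 48.8 and 16.3 CPM with empty vector (replicates 2, 4 and 5) and at 17.4, 7.23 and 15.5 CPM with P16 (replicates 1, 3 and 5). Only numbers 2 and 4 of the controls were high, and the replicate 5 pair differed by -0.070 on the log2 scale. Its log2 fold change of -1.83 ± 0.63 had an unadjusted p of 0.0260 and an adjusted p of 0.986, and with the block, which the empty vector enters through replicate 5 alone, it was -0.034 ± 0.19. Without empty vector replicate 2 it was -1.27 (unadjusted p = 0.0835), and the call was also lost without P16 replicate 3 (-1.53) or 5 (-1.97). In Cd31+ cells Snai2 had a log2 fold change of -0.34 ± 0.43 (-0.33 with an unadjusted p of 0.0328 with the block).

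The other genes did not pass the test in either population. Tgfbr2 had log2 fold changes of 0.089 ± 0.18 (Cd31+) and 0.24 ± 0.26 (Cd146+), and Zeb1 of -0.086 ± 0.16 and -0.093 ± 0.19. The values were 0.030 ± 0.13 and -0.016 ± 0.20 for Tgfb1, 0.0079 ± 0.42 and 0.36 ± 0.38 for Tgfb3, and -0.19 ± 0.24 and 0.064 ± 0.34 for Zeb2. Tgfb2 had log2 fold changes of -0.13 ± 0.22 and -0.84 ± 0.49, the latter -0.094 with the block, and Snai1 of 0.31 ± 0.24 and 0.45 ± 0.50. Of the 11 endothelial markers tested in Cd31+ cells 11 had a higher value with P16, with a median log2 fold change of 0.54. None was called (3.73% of all genes were), and their sum lay at 580 to 1844 CPM with P16 against 395 to 1456 CPM with empty vector. In Cd146+ cells 7 of the 11 had a lower value (median -0.036), none was called, and the sum lay at 48.2 to 2043 CPM against 733 to 1836. Of the 11 mesenchymal markers 7 had a higher value in Cd31+ cells and 8 in Cd146+ cells (medians 0.083 and 0.20), none called, with a sum of 12765 to 27803 against 6650 to 25588 CPM in Cd146+ cells. The part of these markers was not tested.

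**Figure D3:**
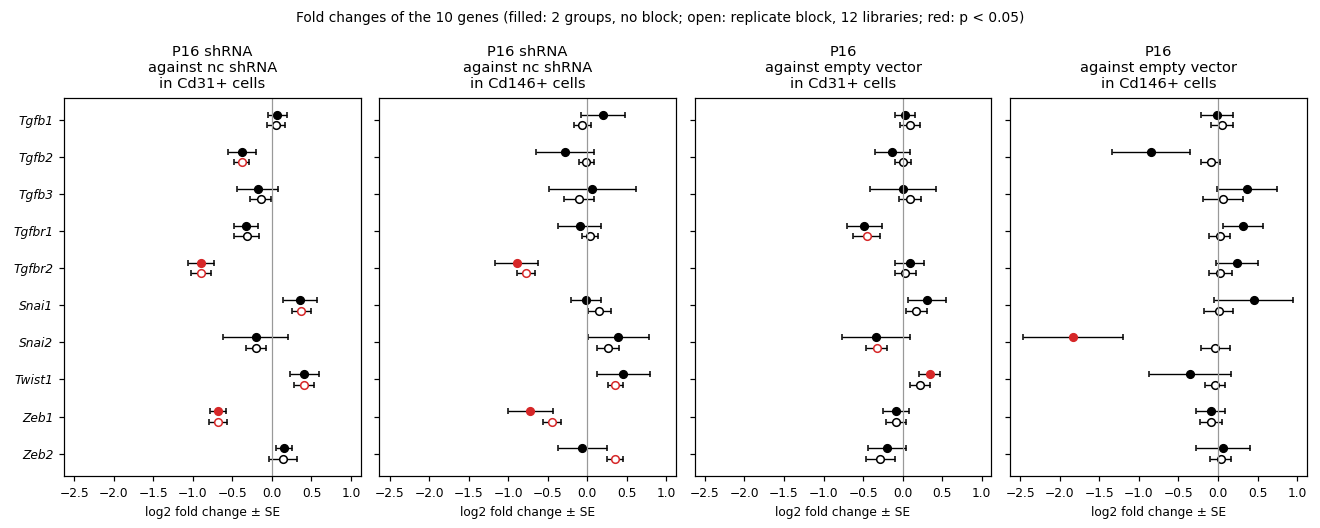
Log2 fold change ± SE (horizontal axes) of the 10 genes in the 4 comparisons, from the 2 groups without a block (filled) and from the 12 libraries of the population with the replicate block (open), with an unadjusted p under 0.05 in red. Tgfbr2 and Zeb1 are red in both silencing panels with both fits, and Snai2 in Cd146+ cells with P16 moves from -1.83 to -0.034 with the block.

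The third comparison sets the 2 populations side by side with control constructs, 6 libraries each. Twist1 was higher in Cd146+ cells, and Tgfbr1 was lower. These were 2 of the 10 genes, against 17.5% of all 15676 genes at an unadjusted p under 0.05, and after adjustment none of the 10 and 0% of all genes were called, with 2737 genes at an unadjusted p under 0.05 and 653 called by DESeq2. Twist1 had a lowest, median and highest value of 25.9, 39.3 and 44.3 CPM over the Cd31+ controls and of 38.7, 46.6 and 134 CPM over the Cd146+ controls. The groups overlapped, and the log2 fold change was 0.72 ± 0.27 with an adjusted p of 0.227. Tgfbr1 had values of 90.0, 99.2 and 127 CPM in Cd31+ and 46.0, 82.1 and 102 CPM in Cd146+ cells, with a log2 fold change of -0.41 ± 0.16 and an adjusted p of 0.239. Without Cd146+ empty vector replicate 4, the highest for Twist1 and the lowest for Tgfbr1, these were 0.40 and -0.29, both still called. The Twist1 call was lost without Cd146+ nc shRNA replicate 3 (0.58), and that of Tgfbr1 without replicate 1 of either Cd31+ control, Cd146+ nc shRNA replicate 1 or Cd146+ empty vector replicate 2 (-0.36 to -0.39). When control libraries of the same number were summed, neither passed an unadjusted p of 0.05 (0.0565 and 0.0798). The other 8 genes had log2 fold changes from -0.57 (Tgfb2) to 0.17 (Tgfbr2). In this comparison 4 of the 11 mesenchymal markers tested were called higher in Cd146+ cells and none lower, against 8.34% and 9.12% of all genes. Called or not, 6 of them had a higher value and 5 a lower one (median log2 fold change 0.024). Of the 11 endothelial markers tested 10 had a higher value in Cd146+ cells (median 0.51), and none was called. The part of these markers in the difference was not tested.

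The difference between the populations in their response was then tested over all 24 libraries. For silencing none of the 10 genes passed an unadjusted p of 0.05, against 1.2% of all 16524 genes (199 genes), and 0% were called after adjustment by edgeR and also none by DESeq2. The difference of the Tgfbr2 effects was 0.0046 ± 0.34 and that of the Zeb1 effects -0.037 ± 0.29 on the log2 scale. For overexpression Tgfbr1 passed, 1 of the 10 against 3.82% of all genes (631 genes), and 0% were called after adjustment (3 by DESeq2). Its effect was 0.81 ± 0.35 higher in Cd146+ than in Cd31+ cells on the log2 scale, with an unadjusted p of 0.0315, and did not pass with the replicate block (0.48 ± 0.27).

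A list of 43 other genes of the pathway was followed next, of which 42 were tested in every comparison. With silencing 2 rose and 9 fell in Cd31+ cells at an unadjusted p under 0.05, where 9.51% of all genes rose and 10.3% fell. In Cd146+ cells 1 rose and 2 fell, where 5.44% and 6.18% of all genes did. None was called after adjustment without the replicate block. The median log2 fold change of the list was -0.13 and -0.041, beside 0.0034 and 0.025 over all genes. With the replicate block 4 rose and 13 fell in Cd31+ cells and 4 rose and 10 fell in Cd146+ cells, where 31.1% and 27.4% of all genes were called in either direction. After adjustment the block called 12 and 6 of the 42, where 16.8% and 8.33% of all genes were called. Col3a1, a fibrillar collagen, rose in both populations, by 0.89 ± 0.28 and 0.66 ± 0.25, the latter called in 2 of 6 fits with 1 library left out.

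Of the 12 intracellular members of the list 6 were called lower in Cd31+ cells (10.3% of all genes). In Cd146+ cells 2 were (6.18%), and none was called higher in either population. Of the 15 tested genes of latent binding, activation and co-receptors 2 were called lower in Cd31+ cells and none higher. Of the 6 induced genes 1 was called higher there and none lower, and of the 9 EndMT genes 1 higher and 1 lower. For Smad2 and Smad4 all silenced libraries lay below all controls in Cd31+ cells, where groups did not overlap for 27.4% of all genes. In Cd146+ cells their groups overlapped. The Smad3 groups overlapped in both populations. Within same-numbered pairs Smad3 was higher with P16 shRNA, by 0.061, 0.43 and 0.31 (Cd31+) and by 0.31 and 0.051 (Cd146+) on the log2 scale. Ski, a co-repressor of Smad complexes, fell from 203, 233 and 184 CPM to 112, 144 and 109 CPM in Cd31+ cells, a log2 fold change of -0.76 ± 0.15, and by -0.95 ± 0.32 in Cd146+ cells. Zfyve9, which presents Smad2 and Smad3 to the receptor, fell by -0.64 ± 0.14 and -0.54 ± 0.19. In Cd146+ cells these calls held in 4 of 6 (Ski) and 2 of 6 (Zfyve9) fits with 1 library left out. In Cd31+ cells Tgif1, another Smad co-repressor, fell by -0.67 ± 0.13, the inhibitory Smad6 by -1.06 ± 0.27 and Vim, the mesenchymal filament gene, by -0.52 ± 0.15. Ccn2, a target that encodes connective tissue growth factor, had log2 fold changes of -0.50 ± 0.21 (unadjusted p = 0.0513) and 0.052 ± 0.73, and the inhibitory Smad7 of -0.17 ± 0.25 and -0.88 ± 0.47. In Cd31+ cells Ccn2 passed an unadjusted p of 0.05 in 5 of 6 alternative edgeR or DESeq2 fits (lowest adjusted p 0.00960). It also passed in 2 of 6 fits with 1 library left out. In Cd146+ cells Smad7 passed in 2 of 8 alternative fits (lowest adjusted p 0.0281) and in 0 of 6 with 1 library left out.

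**Figure D4:**
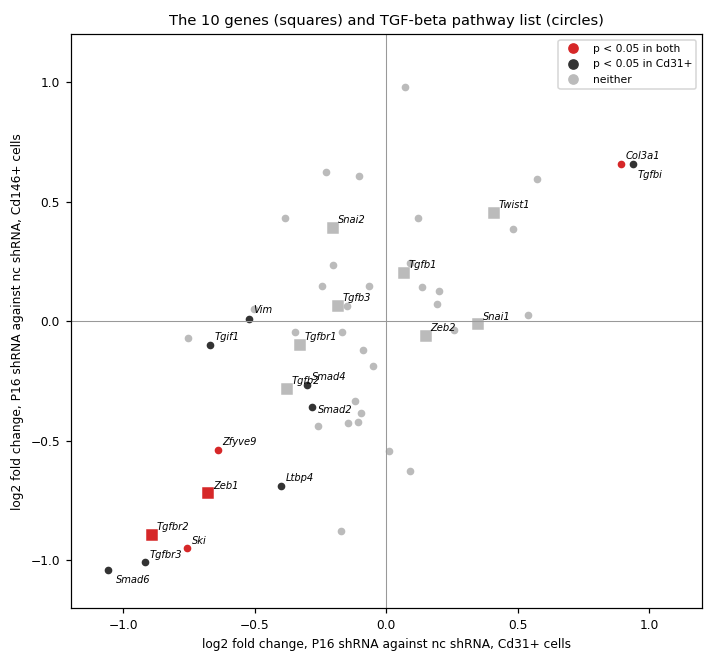
Log2 fold change with P16 shRNA against nc shRNA in Cd31+ (horizontal) and Cd146+ cells (vertical) for the 10 genes (squares) and the pathway list (circles), coloured by an unadjusted p under 0.05. Tgfbr2, Zeb1, Ski and Zfyve9 fell in both populations and Col3a1 rose in both.

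With overexpression 2 of the 42 genes were called in Cd31+ cells and 1 in Cd146+ cells, where 3.73% and 3.53% of all genes were. With the replicate block 4 were called higher and 3 lower in Cd31+ cells (11.4% of all genes), and none in Cd146+ cells (1.78%). Without the block Itgb8, a subunit of an integrin that activates latent TGF-β, fell by -1.27 ± 0.40 in Cd31+ cells. Skil, a relative of Ski, fell by -0.47 ± 0.16 there, and none was called higher. The Itgb8 call held in 3 of 6 fits with 1 library left out, and its value went to -0.83 (unadjusted p = 0.0619) without empty vector replicate 2 and to -0.77 with the replicate block. The Skil call held in 4 of 6, lost without empty vector replicate 1 or 2 (-0.41 and -0.44). In Cd146+ cells Tgfbr3, the co-receptor betaglycan, rose by 1.47 ± 0.43 and none was called lower. With the replicate block, which the empty vector enters there through replicate 5 alone, the Tgfbr3 value was 0.038. Ccn2 had log2 fold changes of 0.13 ± 0.25 and -0.65 ± 0.54, and Smad7 of 0.16 ± 0.24 and 0.092 ± 0.50. Between the populations 1 of the 42 genes was called higher in Cd146+ cells, S100a4 (1.27 ± 0.35), and 9 were called lower, against 8.34% and 9.12% of all genes. Among the lower ones were Itgav (-0.36 ± 0.076), Ltbp1 (-0.84 ± 0.21), Smad4 (-0.29 ± 0.078) and Fn1 (-0.47 ± 0.16). Each of these 4 calls, and that of S100a4, held in 12 of 12 fits with 1 library left out. Of 8 alternative fits they held in 7 (Itgav), 8 (Ltbp1), 6 (Smad4), 6 (Fn1) and 7 (S100a4). Ccn2 and Smad7 differed there by -0.38 ± 0.32 and 0.029 ± 0.29. Of the effects, Tgif1 differed between the populations for silencing (0.58 ± 0.25) and Itgav for overexpression (0.51 ± 0.24), both at an unadjusted p under 0.05 and each 1 of 42, against 1.2% and 3.82% of all genes.

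Over the 24 libraries, which share constructs and replicate numbers, the 10 genes differed in the company they kept, as Pearson's r of log2 CPM. Tgfbr2 ran most closely with Klhl18 (0.909), Cpped1 (0.907) and Dcun1d4 (0.888), and Zeb1 with Atxn2 (0.945), Opa1 (0.930) and Sacm1l (0.915). Twist1 ran most closely with Il11ra1 (0.887), Mycn and H2az2. Snai2 did so with Megf10 (0.915), Slc29a1 and Chsy1, and Snai1 with Septin9 (0.890), Adgrd1 and Vill. Zeb2 did so with Mia3 (0.837), Pja2 and Lrrk2, and Tgfbr1 with Usp40 (0.866), Senp5 and Npepps. The ligands ran with Cdk18, Prr13 and Cited2 (Tgfb1, up to 0.820), Kif26b, Lgr4 and Nrn1 (Tgfb2, up to 0.905) and Clcf1, Nuak2 and Gpr153 (Tgfb3, up to 0.805). Among the 10 genes themselves Tgfb2 and Snai2 had the highest r (0.828) and Twist1 and Zeb2 the lowest (-0.610), and Tgfbr2 and Zeb1 had 0.599.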

How the data were processed

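RNA was sequenced from 24 libraries, 3 for each of 8 combinations of cell population and lentiviral construct, grouped by the sample labels. The counts are whole reads per gene as deposited by the authors, without normalization, and the FPKM values, also made and deposited by the authors, were used only to set levels of different genes side by side. Libraries were poly-T selected, random-primed and non-directional per the labels, sequencing and analysis were done by a company, the submitters' processing notes name fastp and mm9, and the aligner and counter are not given in the sources used here. The authors' own comparison columns (log2 fold changes, p-values) were not used.

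Counts were analysed in R 4.3.3 with edgeR 4.0.16 (filterByExpr, TMM, robust quasi-likelihood fit, two-sided quasi-likelihood test, p-values adjusted by Benjamini-Hochberg across every gene tested). A construct was compared with its control over the 6 libraries of both groups, the populations over their 12 control libraries, and the 2 effects over all 24. SE is the size of the log2 fold change divided by the square root of F. Calls were made at an unadjusted p under 0.05, the threshold of the study, and at an adjusted p under 0.05. DESeq2 1.42.0 gave its size factors and Wald test as alternatives. Other alternatives were no low-count filter, one fit over the 12 libraries of a population, the replicate block, 1 control construct only or controls summed by number for the populations, and each library left out in turn. A term for the sex-linked transcripts, and the Cd146+ libraries numbered 3 left out, were added after seeing the data. The steps were tested on simulated data. CPM are TMM-normalized over the 24 libraries, 3 counts were taken as the floor (0.113 to 0.195 CPM), which covers counting error only, and 15409767 to 26470392 counts per library were available. Correlations used log2(CPM + 1) over the 24 libraries and genes with a mean of at least 10 CPM.

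After the group means were taken out, same-numbered libraries correlated at 0.319 or above in Cd31+ cells and 0.268 or above in Cd146+ cells, so the numbers, which come from the labels, were taken to pair libraries within a population. Between populations the lowest value was -0.0855, and the numbers were not taken to pair libraries. The replicate block of the comparison between the populations nonetheless gave same-numbered libraries of both populations a shared term. No 2 replicates agreed within sampling noise. Named were the 10 genes, Ccn2 and Smad7, up to 5 pathway genes with the smallest p per comparison, the 3 genes most correlated with each of the 10, and Cdkn2a. Genes of the list outside this rule (Col3a1 in Cd31+ cells, for example) were named after their values were seen. One gene of the pathway list is not reported here. The genes, lists and tests were chosen with earlier results of these data known.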

Additional observations from a re-analysis of the deposited data

Results flagged for a closer look

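Of 20 sets of 6 control libraries (10 genes in 2 populations), 1 held a library far from the other 5 by Dixon's criterion. This was Twist1 in Cd146+ empty vector replicate 4, at 134 CPM against 38.7 to 70.2 CPM in the others. Chance alone flags about 1 in 20 such sets. The same library had the lowest Snai1 (11.7 CPM) and Tgfbr1 (46.0 CPM) of all 24 and the lowest Col1a1 (460 CPM).

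The effect of overexpression on Tgfbr1 differed between the populations by 0.81 on the log2 scale (unadjusted p = 0.0315 by edgeR's quasi-likelihood test, adjusted p = 0.989), with -0.48 in Cd31+ and 0.31 in Cd146+ cells. With the replicate block the difference was 0.48 and no longer passed. Leaving out 1 of 12 libraries ended the call in 6 cases: Cd146+ empty vector replicate 4 (0.59), Cd146+ P16 replicates 3 and 5 (0.70 and 0.79), Cd31+ P16 replicate 2 (0.60) and Cd31+ empty vector replicates 1 and 5 (0.74 and 0.79).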

How the results depend on the processing

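The replicate block pairs libraries of a population by number, and in the comparison between the populations also same-numbered libraries of both. With it Tgfbr2 and Zeb1 stayed called with silencing in both populations. Genes among the 10 called in Cd31+ cells with silencing went from 2 to 5 (12 libraries) or 6 (2 groups) at an unadjusted p under 0.05 and from 1 to 4 or 5 after adjustment, and in Cd146+ cells from 2 to 4 under both blocks and from 0 to 2 (12 libraries) or 0 (2 groups) after adjustment. With overexpression the count moved from 1 to 2 or 3 (Cd31+) and from 1 to 0 (Cd146+). For the differences between populations they went from 0 to 2 (silencing, Tgfb2 and Snai2) and from 1 to 0 (overexpression). Genes called at an unadjusted p under 0.05 over the whole table went from 2843 to 4795 or 4871, from 544 to 1766 or 1163, from 1757 to 4362 or 2499, from 525 to 284, from 199 to 752 and from 631 to 414 in these 6 comparisons. After adjustment they went from 186 to 2586 or 2703, from 0 to 1 or 92, from 0 to 1326 or 0, from 0 to 2, and from 0 to 13 for the overexpression difference, and from 0 to 57 between the populations. The block turned the log2 fold changes of Tgfb1 (-0.062 or -0.068), Tgfb3 (-0.10 or -0.088), Tgfbr1 (0.036 or 0.039), Snai1 (0.15 or 0.13), Zeb2 (0.35 under both), Ccn2 (-0.32 or -0.30) and Tgfb2 (0.0074, 2 groups) in Cd146+ silencing. It also turned Tgfb2 (0.0030), Tgfbr2 (-0.071) and Smad7 (-0.056) in Cd31+ overexpression, Tgfb1 (0.048) and Ccn2 (0.16) in Cd146+ overexpression, and Zeb1 (0.095) and Smad7 (-0.027) between the populations. None of the turned values was called without the block.

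Without the low-count filter 6 of the 10 genes were called in Cd31+ silencing, where 3909 of 34699 genes were, and 2 after adjustment. In Cd146+ overexpression 0 of the 10 were called. Among all genes, 1294, 10, 19 and 5 were then called after adjustment (Cd31+ silencing, Cd31+ overexpression, Cd146+ silencing, populations), and 1124, 854, 650 and 1176 at an unadjusted p under 0.05 (both overexpression comparisons, both differences). DESeq2's Wald test called 2 of the 10 after adjustment in Cd31+ silencing. At an unadjusted p under 0.05 it called 2 in Cd31+ overexpression (592 of 14565 genes) and 2 in the overexpression difference (763 of 16524). Its counts over the table after adjustment were 1096, 4, 333, 1, 653 and 3 (Cd31+ silencing, Cd31+ overexpression, Cd146+ silencing, Cd146+ overexpression, populations, overexpression difference), with 792 unadjusted in Cd146+ overexpression. One fit over 12 libraries called 2 of the 10 and 373 genes after adjustment in Cd31+ silencing, 11 in Cd146+ silencing, and 954 unadjusted in Cd31+ overexpression. The term for sex-linked transcripts left 0 of the 10 in Cd31+ overexpression (813 of 14565 genes) and 1 between the populations (2252 of 15676). In Cd146+ overexpression it left 244 genes. It turned Tgfb1 (-0.0052), Tgfb3 (-0.34), Snai1 (0.0046) and Ccn2 (-0.72) in Cd146+ silencing. Smad7 (-0.072) in Cd146+ overexpression and Zeb1 (0.076) between the populations turned as well. Between the populations, empty vector libraries alone called 1 of the 10 and 910 genes and turned Snai2 (0.26), Zeb1 (0.11) and Ccn2 (0.18). There, nc shRNA libraries alone called 1175 genes and turned Smad7 (-0.016), and controls summed by number called 0 of the 10 and 1265 genes and turned Zeb1 (0.012). The causes were not tested.

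Leaving out single libraries, the number of the 10 genes called ranged from 2 to 4 in Cd31+ silencing (0 after adjustment), 0 to 2 in Cd31+ overexpression, 1 to 2 in Cd146+ silencing, 0 to 2 in Cd146+ overexpression, 1 to 3 between the populations and 0 to 3 for the overexpression difference. Genes over the whole table ranged from 0 to 64 after adjustment in Cd31+ silencing, and unadjusted from 189 to 1037, 815 to 2350 and 221 to 1292 in Cd31+ overexpression, Cd146+ silencing and Cd146+ overexpression. For the differences they ranged from 139 to 699 and 359 to 1276 unadjusted, with 0 to 12 adjusted for overexpression and 0 to 13 between the populations. Log2 fold changes that changed sign had the ranges -0.030 to 0.15 (Tgfb1), -0.36 to 0.15 (Tgfb3), -0.61 to 0.21 (Snai2) and -0.40 to 0.0048 (Smad7) in Cd31+ silencing. In Cd146+ silencing they were -0.10 to 0.43 (Tgfb1), -0.51 to 0.20 (Tgfb2), -0.41 to 0.50 (Tgfb3), -0.27 to 0.11 (Tgfbr1), -0.15 to 0.086 (Snai1), -0.28 to 0.12 (Zeb2) and -0.54 to 0.51 (Ccn2). In Cd31+ overexpression they were -0.032 to 0.12 (Tgfb1), -0.32 to 0.039 (Tgfb2), -0.45 to 0.24 (Tgfb3), -0.0015 to 0.25 (Tgfbr2), -0.77 to 0.11 (Snai2), -0.21 to 0.0074 (Zeb1), -0.34 to 0.0097 (Zeb2) and -0.12 to 0.32 (Ccn2). In Cd146+ overexpression they were -0.15 to 0.12 (Tgfb1), -0.010 to 0.66 (Tgfb3), -0.77 to 0.35 (Twist1), -0.22 to 0.094 (Zeb1), -0.18 to 0.30 (Zeb2) and -0.61 to 0.39 (Smad7). Between the populations they were -0.12 to 0.030 (Zeb1) and -0.27 to 0.15 (Smad7). Tgfbr2 kept its sign and an unadjusted p under 0.05 in both silencing comparisons whichever library was left out, and Zeb1 did so in Cd31+ cells, while in Cd146+ cells its call held in 2 of 6 such fits, with p up to 0.0818. With 3 libraries a group, changes well over their SE could go uncalled, such as Ccn2 in Cd31+ silencing (-0.50 ± 0.21). A gene that was not called is thus not shown to be unchanged.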
